A study of Mus musculus with 15 samples.

Results

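The Slc16 family codes for monocarboxylate transporters (MCTs), membrane proteins that carry small organic acids and related solutes. Described here are 9 genes in mouse kidney, out of 23284 in the deposited table: Slc16a1, Slc16a4, Slc16a6, Slc16a7, Slc16a9, Slc16a10, Slc16a12, Slc16a13 and Bsg, the gene of basigin. They were chosen by name, 8 carriers and a chaperone, after the values of these samples were known, with the level of Slc16a6 in the D-alanine group in view. Their differences between groups are therefore given as a description, without p-values. The 15 samples were kidney RNA of wild-type (WT) mice in 3 groups of 5, labelled Vehicle, L-ala (L-alanine) and D-ala (D-alanine), all taken at 2 h. L-alanine and D-alanine are mirror images of one another. The sources used here do not give the strain, sex or age of the mice, how much of either isomer they received or by which route, or what the vehicle held, so nothing below assumes matched doses. The labels do not state that each sample came from its own mouse, so p-values measure the spread between these samples, which may in part be technical.

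Levels are FPKM, fragment counts divided by transcript length and library size, which can be compared between genes. Differences are log2 fold changes of (FPKM + 1) with standard errors (SE) and 95% intervals from limma, a scale that understates changes of low genes. A gene is counted as called where its Benjamini-Hochberg adjusted p over the 11781 tested genes was under 0.05. All 9 genes were above the filter of 1 FPKM in all 15 libraries, the lowest value being 1.72 FPKM for Slc16a6 in vehicle replicate 4. Replicate numbers only name libraries and pair none of them, and "vehicle 2 or 4" stands for replicates 2 and 4 of the vehicle group, each left out in turn.

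Carriers of this family fall into classes by what they move. Slc16a1 (MCT1) and Slc16a7 (MCT2) carry lactate, pyruvate and ketone bodies together with a proton, and reach the cell surface only when bound to a chaperone, basigin for Slc16a1 and chiefly embigin (Emb) for Slc16a7. Slc16a10 (TAT1) lets aromatic amino acids pass, Slc16a12 carries creatine and Slc16a9 has been linked to carnitine and creatine. Slc16a6 (MCT7) has been linked to the export of ketone bodies from liver and to taurine. Slc16a4 and Slc16a13 are less well characterised. In the kidney, filtered lactate is taken up from the tubular fluid by the sodium-coupled carriers Slc5a8 and Slc5a12 in the proximal tubule, and proton-coupled carriers pass it on across the basolateral membrane.

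RefSeq promoter sequences (GRCm38.p6) were at hand for 5 of the 9 genes: Slc16a1, Slc16a4, Slc16a9, Slc16a10 and Slc16a12. The 250 bases before the start were searched on both strands for TGACGTCA (the CRE), its half-site TGACG, which every full CRE also holds, TGANTCA (AP-1), CACGTG (the E-box) and TGATGNAA (an ATF4-type element). Slc16a1 and Slc16a12 each held an E-box, and they are shown because no other of the searched motifs occurred in any of the 5 windows. Capitals mark the E-box, which reads the same on both strands. The Slc16a1 window is chr3:104638414-104638663 on the plus strand and the Slc16a12 window is chr19:34747329-34747578 on the minus strand, both written 5′ to 3′.
Slc16a1: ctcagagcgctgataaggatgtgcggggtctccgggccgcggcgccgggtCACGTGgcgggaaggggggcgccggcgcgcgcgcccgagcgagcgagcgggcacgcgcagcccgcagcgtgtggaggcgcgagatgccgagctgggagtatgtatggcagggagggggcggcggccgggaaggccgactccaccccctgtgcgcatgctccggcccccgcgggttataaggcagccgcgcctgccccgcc
Slc16a12: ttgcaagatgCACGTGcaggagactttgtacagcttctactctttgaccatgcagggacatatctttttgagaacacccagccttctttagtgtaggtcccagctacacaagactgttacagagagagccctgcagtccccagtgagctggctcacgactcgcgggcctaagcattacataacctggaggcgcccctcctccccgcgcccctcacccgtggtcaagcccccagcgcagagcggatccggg
The E-box lies 200 bases before the start in Slc16a1 and 240 bases before it in Slc16a12. Among all 32851 promoter windows of the same length, 6.02% held CACGTG, 1.55% TGACGTCA, 17.8% TGACG, 6.75% TGANTCA and 3.45% TGATGNAA. A match is a description of the letters and not a site of binding. The 2 genes with an E-box did not share a pattern across the groups, as their values below show.

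Slc16a6 was the carrier whose level differed most between groups. It lies on GRCm38 chromosome 11, 109450855 to 109473598, minus strand. In vehicle replicates 1 to 5 it stood at 2.97, 1.90, 2.78, 1.72 and 2.49 FPKM. In the L-ala libraries it was 3.38, 2.42, 2.31, 2.84 and 3.23 FPKM. In the D-ala libraries it was 15.6, 14.5, 15.8, 18.1 and 13.4 FPKM. Every D-ala library was thus well above every other library, while the vehicle and L-ala ranges overlapped. The means were 2.37 ± 0.544 FPKM for vehicle, 2.84 ± 0.475 for L-ala and 15.5 ± 1.74 for D-ala (SD, n = 5).

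The mean of Slc16a6 under D-ala was 6.52 times that under vehicle and 5.45 times that under L-ala. On the log2 scale D-ala exceeded vehicle by 2.30 (SE 0.11, interval 2.06 to 2.54) and L-ala by 2.10 (SE 0.11, 1.86 to 2.34). The difference of L-ala from vehicle was 0.19 (SE 0.11), with an interval of -0.05 to 0.43 that includes no difference. Over 23 alternative settings, which included leaving out each library in turn, the D-ala difference stayed between 2.22 and 2.68 against vehicle and between 2.05 and 2.41 against L-ala. Among the 11781 tested genes Slc16a6 ranked 17 by log2 fold change between D-ala and vehicle and 5 between the isomers. The deposited rescaled counts behind these values were 69 to 119 per vehicle library, 93 to 136 per L-ala library and 540 to 727 per D-ala library.

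Slc16a6 also changed its place among the 9 genes. Under vehicle and L-ala it had the lowest mean of the 9, below Slc16a1 without overlap. Under D-ala it ranked 7, with a range that overlapped that of Slc16a10, the next in order, and Slc16a10 in turn overlapped Slc16a1. Even so it remained a small part of the family's transcripts. Of the summed FPKM of the 14 Slc16 genes it made up 0.670 ± 0.151% under vehicle, 0.739 ± 0.118% under L-ala and 3.94 ± 0.378% under D-ala (SD, n = 5). The summed FPKM of the family were 354 ± 7.15, 384 ± 23.7 and 392 ± 17.1. In whole kidney, a higher share of cells that express a gene and more RNA per cell cannot be told apart.

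**Figure D1:**
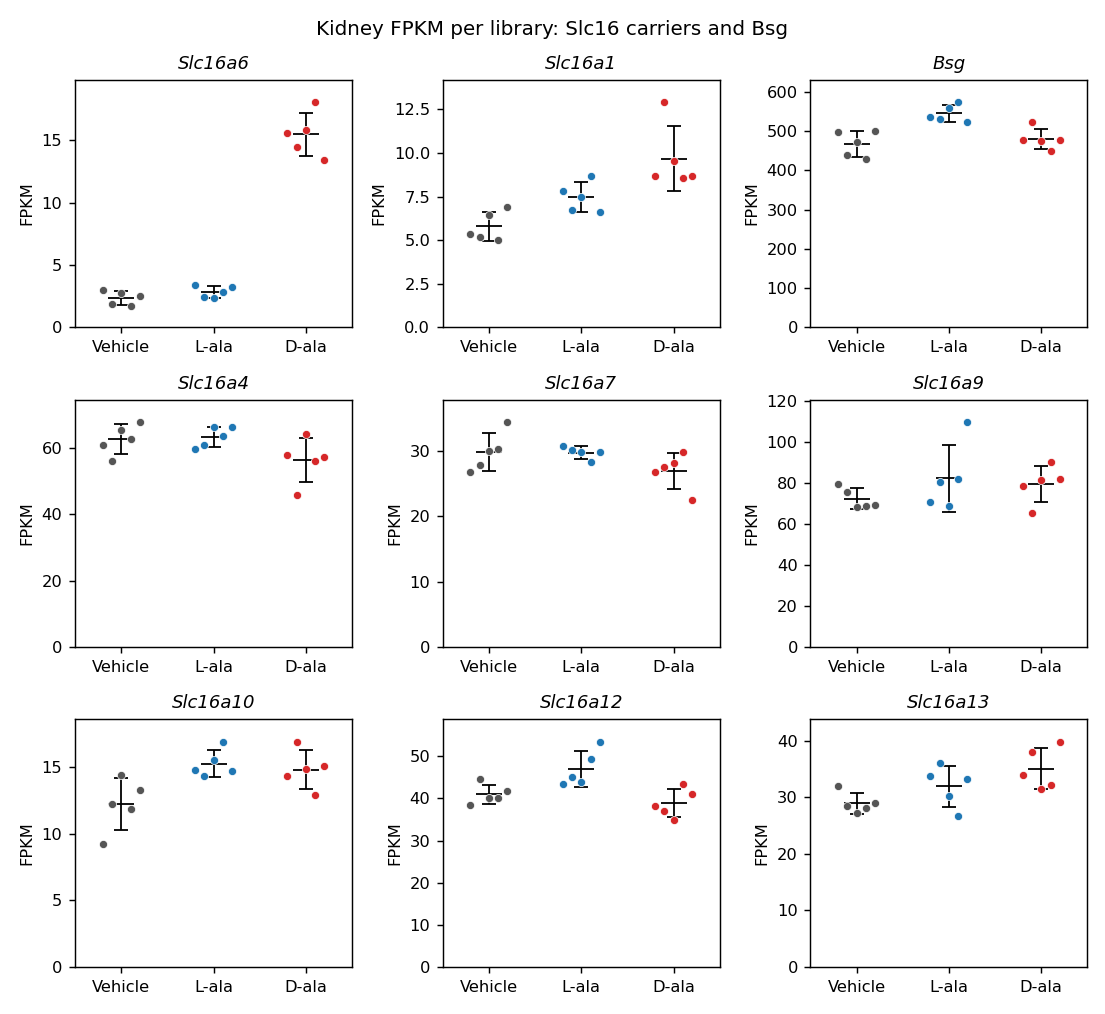
FPKM per kidney library (y axis, linear, from 0) of the 9 genes in the Vehicle, L-ala and D-ala groups (x axis); each point is 1 library, horizontal bars are means and error bars are SD (n = 5). The D-ala points of Slc16a6 lie between 13.4 and 18.1 FPKM, apart from all others of that gene, whereas most other panels show overlapping groups.

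Slc16a6 shares ground with a gene at each of its ends, both on the opposite strand. Amz2, which codes for a metallopeptidase, shares 1959 bases with its 3′ end, and Arsg, which codes for the lysosomal enzyme arylsulfatase G, shares 225 bases with its 5′ end. The libraries came from a strand-marking kit, and the sources used here do not say whether counting used the strand. Both were looked at for their position, outside the rule for named genes. Amz2 was at 18.1 ± 1.27 FPKM under vehicle, 18.95 ± 0.969 under L-ala and 16.1 ± 0.994 under D-ala (SD, n = 5). It fell by 0.23 on the log2 scale between L-ala and D-ala (adjusted p = 0.022), and its difference between D-ala and vehicle was -0.16 (adjusted p = 0.0849). Arsg was at 24.7 ± 0.930 FPKM under vehicle, 28.3 ± 1.40 under L-ala and 30.2 ± 2.90 under D-ala, and its rise under D-ala was 0.28 (SE 0.06, adjusted p = 0.0101). The ratio of the D-ala and vehicle means was 0.887 for Amz2 and 1.22 for Arsg, beside 6.52 for Slc16a6. Both neighbours had higher vehicle means than Slc16a6, at 2.37 FPKM. Whether reads of either neighbour were counted for Slc16a6 was not tested.

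Slc16a1, the widely expressed lactate and ketone body carrier (chromosome 3, 104638668 to 104658462, plus strand), was the other member whose D-ala and vehicle libraries did not overlap. Its vehicle libraries read 5.37, 5.203, 6.43, 5.03 and 6.89 FPKM. Its L-ala libraries read 7.799, 6.75, 7.46, 8.71 and 6.60 FPKM, and its D-ala libraries 8.68, 12.9, 9.55, 8.54 and 8.65 FPKM. The L-ala range lay between the others and overlapped both. The means were 5.79 ± 0.825, 7.46 ± 0.854 and 9.67 ± 1.86 FPKM (SD, n = 5), so that D-ala was 1.67 times vehicle. The log2 difference was 0.65 (SE 0.11, interval 0.41 to 0.88) for D-ala against vehicle, 0.32 (0.09 to 0.55) for L-ala against vehicle and 0.32 (0.09 to 0.55) between the isomers. D-ala replicate 2 was the highest library. Without it the difference from vehicle was 0.55 and that from L-ala 0.22.

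Bsg codes for basigin, which escorts Slc16a1 and its close relatives to the membrane (chromosome 10, 79704491 to 79711969, plus strand). Its transcript level was the highest of the 9 in each group, above the next, Slc16a9, without overlap. Vehicle libraries held 496, 439, 472, 429 and 499 FPKM. L-ala libraries held 536, 530, 559, 573 and 524 FPKM, and D-ala libraries 478, 522, 474, 450 and 477 FPKM. Here the L-ala libraries were the high ones, above every vehicle and every D-ala library, while D-ala and vehicle overlapped. The means were 467 ± 32.3, 545 ± 20.9 and 480.15 ± 26.1 FPKM (SD, n = 5). The log2 difference was 0.22 (SE 0.06, interval 0.10 to 0.35) for L-ala against vehicle, -0.18 (-0.30 to -0.06) between D-ala and L-ala, and 0.04 (-0.08 to 0.16) for D-ala against vehicle.

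The L-ala difference of Bsg from vehicle was called after median-of-ratios scaling, but not after quantile normalization or removal of the length trend. The call between the isomers was lost in each of them. After quantile normalization the L-ala difference from vehicle was 0.02, and the difference between the isomers was -0.03. With each library's trend with gene length removed these were 0.12 and -0.10.

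Slc16a1 and Bsg followed each other from library to library. After each group's mean was subtracted, their Pearson r across the 15 libraries was 0.778, the highest of the 36 pairs among the 9 genes, and it ran from 0.697 (without D-ala replicate 2) to 0.902 (without vehicle replicate 1) when 1 library was left out. The next pairs were Slc16a9 with Slc16a12 at 0.675, or 0.486 without L-ala replicate 5, and Slc16a1 with Slc16a10 at 0.672 (0.619 to 0.836). The lowest was Slc16a1 with Slc16a9 at -0.582. These values are a description across libraries that share depth and tissue make-up within each sample. Slc16a6 followed none of the other 8 closely by this measure, with r from -0.267 (Slc16a10) to 0.347 (Slc16a9).

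**Figure D2:**
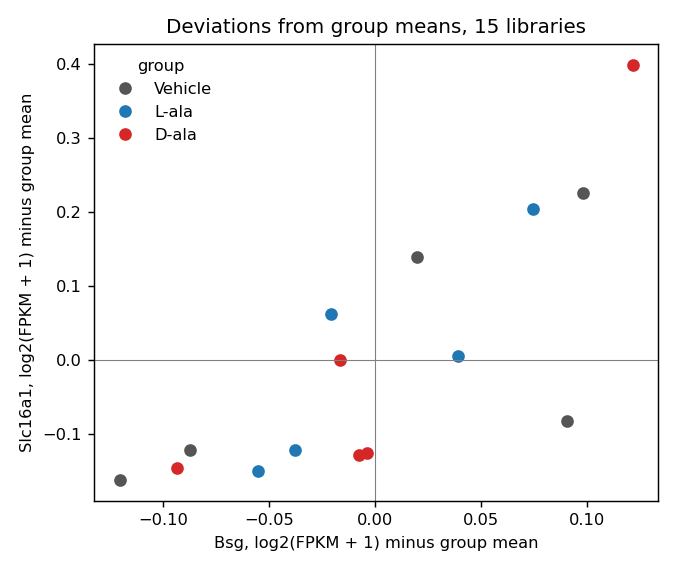
Deviation of each of the 15 libraries from its group mean in log2(FPKM + 1), for Bsg (x axis) and Slc16a1 (y axis), coloured by group. The points rise together (Pearson r 0.778), and the highest point is D-ala replicate 2.

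Slc16a7 (MCT2, chromosome 10, 125219270 to 125389465, minus strand), a high-affinity lactate and pyruvate carrier, differed little between groups. It ranged from 26.8 to 34.4 FPKM under vehicle, 28.3 to 30.8 under L-ala and 22.6 to 29.9 under D-ala, all overlapping. D-ala against vehicle was -0.14 (SE 0.07, interval -0.30 to 0.01). Slc16a4 (MCT5, chromosome 3, 107291230 to 107312115, plus strand), whose substrates are not settled, ranged from 56.0 to 67.7 FPKM under vehicle, 59.7 to 66.4 under L-ala and 45.8 to 64.0 under D-ala. Its D-ala difference from vehicle was -0.16 (-0.32 to 0.00), or -0.09 without D-ala replicate 2, its lowest library. Against L-ala, D-ala was at -0.14 (-0.30 to 0.01) for Slc16a7 and -0.17 (-0.33 to -0.02) for Slc16a4. Of these intervals only the last left out 0.

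Slc16a13 (MCT13, chromosome 11, 70216789 to 70221064, minus strand) leaned upwards under D-ala. Vehicle libraries were 32.1, 28.4, 27.2, 28.2 and 29.003 FPKM, L-ala libraries 33.8, 36.1, 30.3, 26.6 and 33.2 FPKM, and D-ala libraries 34.002, 38.02, 31.4, 32.1 and 39.8 FPKM. Vehicle replicate 1 reached into the D-ala range, so that the groups overlapped. The means were 28.98 ± 1.84, 32.0 ± 3.64 and 35.1 ± 3.69 FPKM (SD, n = 5), and D-ala against vehicle was 0.26 (SE 0.08, interval 0.09 to 0.44).

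Slc16a10, the aromatic amino acid carrier (chromosome 10, 40033532 to 40142258, minus strand), had a higher mean with either isomer than with vehicle. Only the L-ala difference was called. Vehicle libraries were 9.21, 12.2, 14.4, 11.8 and 13.3 FPKM, L-ala libraries 14.8, 14.3, 15.6, 16.9 and 14.7 FPKM, and D-ala libraries 14.4, 16.9, 14.9, 12.9 and 15.1 FPKM. Vehicle replicate 3 overlapped both treated groups, and vehicle replicate 1 was the lowest library. L-ala against vehicle was 0.31 (SE 0.09, interval 0.11 to 0.51) and D-ala against vehicle 0.27 (0.07 to 0.47). The isomers differed by -0.04 (-0.24 to 0.16). Without vehicle replicate 1 these 3 values were 0.22, 0.18 and -0.04.

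Slc16a12, a creatine carrier (chromosome 19, 34668403 to 34747289, minus strand), was highest under L-ala. Vehicle libraries were 38.5, 44.6, 40.2, 40.02 and 41.7 FPKM, L-ala libraries 43.4, 45.02, 43.8, 49.4 and 53.4 FPKM, and D-ala libraries 38.2, 37.1, 34.9, 43.5 and 41.1 FPKM. L-ala overlapped vehicle through vehicle replicate 2 and D-ala through D-ala replicate 4. D-ala against L-ala was -0.27 (SE 0.07, interval -0.41 to -0.12), L-ala against vehicle 0.19 (0.04 to 0.34) and D-ala against vehicle -0.07 (-0.22 to 0.07).

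Slc16a9, linked to carnitine and creatine (chromosome 10, 70245100 to 70285968, plus strand), was the most abundant of the 8 carriers in each group. It ranged from 68.1 to 79.6 FPKM under vehicle, 68.9 to 109.8 under L-ala and 65.5 to 90.2 under D-ala. The wide L-ala range came from L-ala replicate 5, at 109.8 FPKM, where the next L-ala library stood at 82.0. L-ala against vehicle was 0.17 (SE 0.11, interval -0.06 to 0.40), and 0.06 without that library. That library was also unlike its group over all genes: on values centred by gene its mean r with the rest of the L-ala group was -0.118, whereas the other 14 libraries had 0.071 to 0.288 with their own groups.

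Counted over the 9 genes, D-ala against vehicle called 3 higher, Slc16a6, Slc16a1 and Slc16a13, and 0 lower, where 6.53% of all tested genes were called higher and 4.92% lower. L-ala against vehicle called 2 higher, Bsg and Slc16a10, and 0 lower, beside 6.48% and 4.53% of tested genes. Between the isomers 1 was called higher under D-ala, Slc16a6, and 2 lower, Slc16a12 and Bsg, beside 7.01% and 6.66%. As the members were chosen with these contrasts known, nothing is read from the counts. The groups did not overlap for 2 members higher and 0 lower in D-ala against vehicle (6.12% and 4.76% of tested genes), for 1 higher and 0 lower in L-ala against vehicle (4.01% and 3.23%), and for 1 higher and 1 lower between the isomers (5.08% and 4.02%). The median member difference was 0.13, 0.19 and -0.04 in the 3 comparisons, beside medians of 0.0011, 0.0070 and -0.0090 over all tested genes. The 3 comparisons share their groups pairwise, so their values are not independent of each other.

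The calls of Slc16a6 (D-ala against each other group) and Slc16a1 (D-ala against vehicle) were made in all 23 alternatives. Slc16a13 for D-ala against vehicle was called in 11 of 23, and not without vehicle 2, 3, 4 or 5, L-ala 1 or 3, or D-ala 1, 2 or 5. Slc16a10 was called in that comparison without vehicle replicate 3 or D-ala replicate 4. For L-ala against vehicle, Bsg was called in 15 and Slc16a10 in 9 of 23, and 0 members were called without vehicle 2 or 4 or L-ala 1, 3 or 4. Only 1 was called there without D-ala 1, 3 or 5, vehicle replicate 1 or L-ala replicate 2. Slc16a1 joined the calls of that comparison when D-ala replicate 2, or replicate 5 of either other group, was left out. For D-ala against L-ala, Slc16a12 was called in 19 of 23, not without L-ala replicate 4 or D-ala replicate 3, where Slc16a6 alone was called, and Bsg in 7 of 23.

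**Figure D3:**
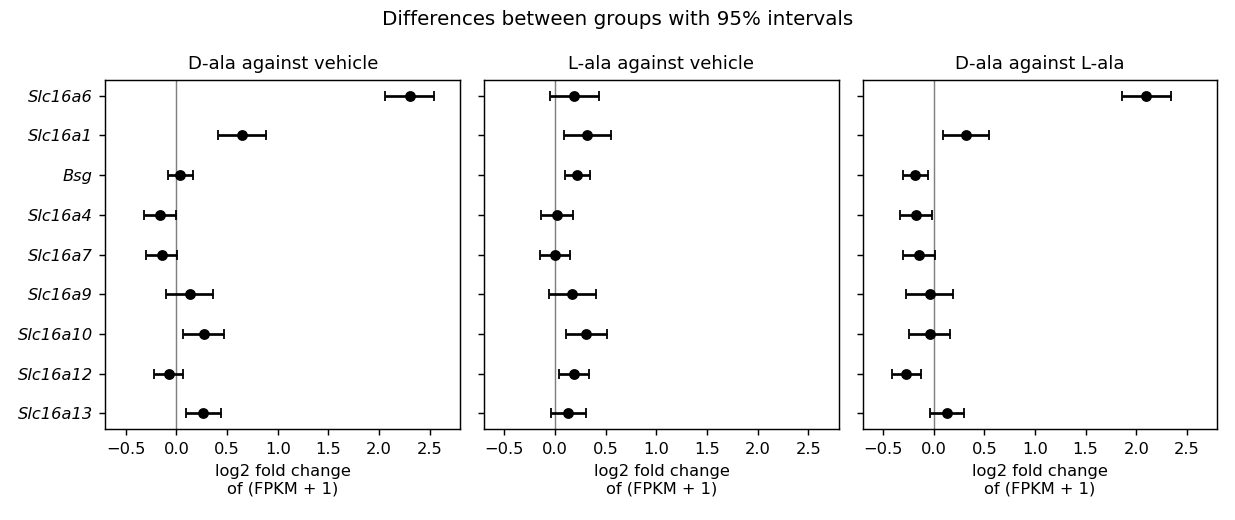
Log2 fold change of (FPKM + 1) for each of the 9 genes (rows) in the 3 comparisons (panels); points are limma estimates over 15 libraries and bars are 95% intervals. Slc16a6 stands at 2.30 and 2.10 in the panels with D-ala and at 0.19 for L-ala against vehicle, while every other point lies between -0.27 and 0.65.

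Markers of kidney cell types were present, and the summed levels of some marker lists differed between groups. In whole kidney such sums cannot tell the share of a cell type from RNA per cell. All 8 proximal tubule markers were present, and their summed level was 8990 to 10400 FPKM under vehicle, 10900 to 12200 under L-ala and 11700 to 12700 under D-ala, so that neither treated group overlapped vehicle. Of these 8, 4 rose under D-ala and 3 under L-ala, and 0 fell in either. The 6 endothelial markers summed to 52.1 to 86.1 FPKM under vehicle, 36.3 to 73.8 under L-ala and 39.9 to 58.6 under D-ala. Red blood cell markers (8 of 10 listed in the table) summed to 42.7 to 623 FPKM, 598 to 1710 and 82.7 to 1130, in the same order. Neutrophil markers (8, with Camp at 0 in every library) summed to 0.676 to 7.72 FPKM, 13.2 to 35.2 and 2.38 to 11.4. Macrophage markers (8) summed to 65.8 to 91.3, 56.4 to 76.9 and 45.3 to 65.5 FPKM, and adipocyte markers (9) to 108 to 473, 155 to 259 and 78.6 to 580. The 2 thick ascending limb markers summed to 1580 to 1850 FPKM under vehicle, 965 to 1390 under L-ala, without overlap, and 1060 to 1740 under D-ala, and 1 fell under L-ala. The 2 distal convoluted tubule markers summed to 162 to 203, 182 to 205 and 203 to 274 FPKM, and 1 rose under D-ala. The 4 collecting duct markers summed to 406 to 503, 425 to 502 and 379 to 428 FPKM, with 1 up and 1 down under D-ala, and the 3 podocyte markers to 35.3 to 56.4, 38.7 to 57.2 and 49.1 to 64.7 FPKM, with 0 called against vehicle. Of the 6 endothelial markers 5 fell under L-ala and 2 under D-ala, and of 6 tested macrophage markers 1 and 3 fell. Blood cell markers had their highest medians with L-ala, the group in which Bsg was highest. The summed proximal tubule markers were higher with both isomers, as the mean of Slc16a10 was. The part of these markers in the differences of the carriers was not tested. Depth recovered from the rescaled counts spanned 7.57 to 10.94 M reads, and every pair of libraries of a group differed by more than sampling noise.

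The other 6 Slc16 genes were not members and were tested, but their list too was drawn up with earlier results known, so their adjusted p-values are not independent evidence. Of the 4 that passed the filter on low values, 2 rose and 0 fell between vehicle and D-ala, 0 changed between vehicle and L-ala by limma (3 at an unadjusted p under 0.05), and 1 was higher under D-ala than L-ala. Their median difference for D-ala against vehicle was 0.25. Slc16a14 (chromosome 1, 84905898 to 84935134, minus strand), a less studied carrier expressed in kidney, read 14.4, 12.03, 16.6, 13.99 and 8.74 FPKM under vehicle, 10.3, 11.4, 8.51, 13.3 and 10.5 under L-ala and 21.3, 15.03, 17.5, 18.98 and 22.2 under D-ala. All D-ala libraries were above all L-ala libraries, and vehicle overlapped both. Slc16a14 was higher under D-ala than L-ala by 0.76 (SE 0.15, interval 0.45 to 1.07, adjusted p = 0.00486), a call made in all 23 alternatives. Against vehicle its rise was 0.52 (SE 0.15, adjusted p = 0.032), which did not pass without vehicle 2, 4 or 5 or D-ala 1, 4 or 5 (highest adjusted p = 0.0773).

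Slc16a11, a proton-coupled carrier that has been linked to pyruvate, lies next to Slc16a13 on chromosome 11 (70212752 to 70216417, plus strand), without overlap. Its level was 12.9 ± 0.834 FPKM under vehicle, 16.1 ± 2.93 under L-ala and 16.8 ± 1.57 under D-ala (SD, n = 5). It rose under D-ala by 0.36 (SE 0.10, adjusted p = 0.0345) with no overlap of the groups. The call was lost in 9 of 23 alternatives, among them without vehicle 1, 2, 3 or 4 or D-ala 1, 2, 3 or 5 (highest adjusted p = 0.0872). For L-ala against vehicle it was at 0.28 (adjusted p = 0.0784), and it passed without L-ala replicate 5 (adjusted p = 0.00425).

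Slc16a5 (MCT6), which carries bumetanide and other drugs, stood at 7.89 ± 1.80, 5.995 ± 1.70 and 7.88 ± 1.45 FPKM under vehicle, L-ala and D-ala (SD, n = 5), and no comparison passed (L-ala against vehicle -0.35, adjusted p = 0.161). Without L-ala replicate 5 it fell by 0.47 under L-ala (adjusted p = 0.0415). Slc16a3 (MCT4), the lactate exporter of glycolytic cells, and Slc16a8 (MCT3), a lactate carrier of the retinal pigment epithelium, were too low to test, with highest values of 0.764 and 0.297 FPKM. Slc16a3 read 0.175 to 0.477 FPKM under vehicle, 0.489 to 0.764 under L-ala and 0.251 to 0.593 under D-ala.

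**Figure D4:**
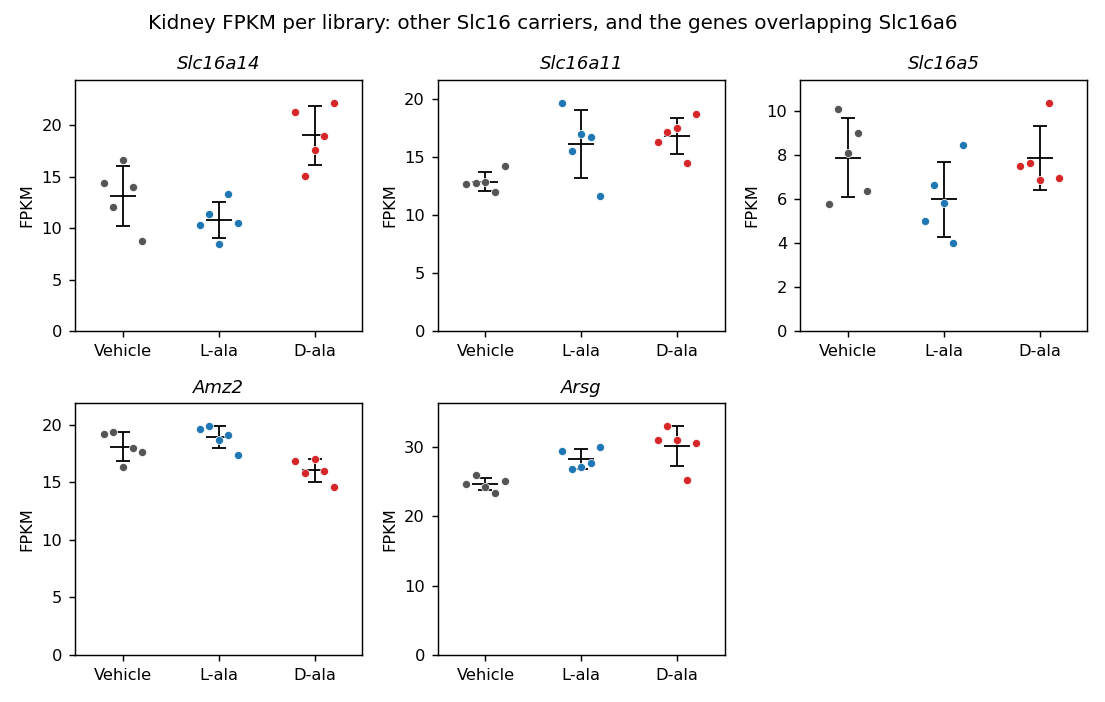
FPKM per library (y axis, linear, from 0) of 3 further Slc16 genes and of Amz2 and Arsg, which overlap Slc16a6 on the opposite strand; points are libraries, bars are means and error bars are SD (n = 5). Slc16a14 under D-ala lies between 15.03 and 22.2 FPKM, above every L-ala library. The ratio of the D-ala and vehicle means is 0.887 for Amz2 and 1.22 for Arsg.

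Genes that work beside the carriers were grouped in 8 lists of 76 genes, the other Slc16 carriers included. All 8 lists were drawn up with earlier results of these data known. Adjusted p-values of their genes are therefore not independent evidence, and the counts called are a description only. Of the 76 genes 67 were tested. Between vehicle and D-ala 10 of these 67 rose, 1 fell and 56 did not pass, where 6.53% of all tested genes rose and 4.92% fell. Between vehicle and L-ala 6 rose, 3 fell and 58 did not pass (6.48% and 4.53% of all tested genes). Between L-ala and D-ala 4 were higher under D-ala, 5 lower and 58 did not pass (7.01% and 6.66%). The counts for D-ala against vehicle dropped to 5 without vehicle replicate 4 or D-ala replicate 1 and to 7 without vehicle 2 or 5 or D-ala replicate 5. Those for L-ala against vehicle were 2 without vehicle replicate 4, 3 without L-ala replicate 4, 5 without vehicle replicate 2 and 17 without L-ala replicate 5. Those for D-ala against L-ala were 4 or 5 without L-ala 1, 3 or 4 or D-ala 1 or 3, and 20 without L-ala replicate 5.

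Of the carriers that bring monocarboxylates into the tubule cell and into mitochondria, 1 of 4 rose under D-ala, 0 of 4 changed under L-ala by limma (2 at an unadjusted p under 0.05), and 3 of 4 differed between the isomers. Slc5a8, the high-affinity sodium-coupled lactate carrier of the apical membrane, stood at 48.0 ± 3.53 FPKM under vehicle, 44.4 ± 8.30 under L-ala and 57.5 ± 6.61 under D-ala (SD, n = 5). It was higher under D-ala than L-ala by 0.37 (SE 0.10, adjusted p = 0.0267). Slc5a12, its low-affinity counterpart, stood at 104.8 ± 13.9, 111 ± 24.2 and 82.2 ± 10.4 FPKM and was lower under D-ala than L-ala (-0.41, SE 0.13, adjusted p = 0.0484). The 2 sodium-coupled carriers thus differed between the isomers in opposite directions.

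The Slc5a12 call was lost in 15 of 23 alternatives (highest adjusted p = 0.131), without vehicle 2, 4 or 5, L-ala 2, 3 or 4, or D-ala 1, 2, 3 or 4 among them. The Slc5a8 call was lost in 7 (highest adjusted p = 0.0685), without L-ala 1, 3 or 4 or D-ala 1, 2 or 4 among them. Without L-ala replicate 5 Slc5a8 also passed for D-ala against vehicle (0.25, adjusted p = 0.035, and 0.125 with all libraries).

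Mpc1 and Mpc2 form the mitochondrial pyruvate carrier. Mpc1 rose from a vehicle mean of 29.7 ± 1.95 FPKM to 36.9 ± 3.54 under D-ala (0.30, SE 0.07, adjusted p = 0.0111), a call lost only when the trend with gene length was removed. Mpc2 stood at 516 ± 42.6, 625 ± 85.1 and 506 ± 23.2 FPKM under vehicle, L-ala and D-ala. It was lower under D-ala than L-ala (-0.29, SE 0.09, adjusted p = 0.0334), and at -0.12 after quantile normalization or removal of the length trend. That call was lost without L-ala 1, 3 or 4 or D-ala 1, 3 or 4 (highest adjusted p over all 23 alternatives 0.125). Under L-ala neither passed, at 0.20 for Mpc1 (adjusted p = 0.0768) and 0.27 for Mpc2 (adjusted p = 0.0527). Mpc2 passed there without vehicle replicate 5, without L-ala replicate 5 and with a filter of 5 FPKM (lowest adjusted p = 0.005). The difference between the subunits was not tested.

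Among the chaperones other than Bsg, 0 of 2 passed in any comparison by limma, and at an unadjusted p under 0.05 there was 1 for D-ala against each other group and 0 between L-ala and vehicle. After quantile normalization 1 passed between D-ala and vehicle. Emb, the embigin gene, was at 13.3 ± 1.07 FPKM under vehicle, 14.7 ± 1.61 under L-ala and 14.2 ± 0.921 under D-ala (D-ala against vehicle 0.09, adjusted p = 0.494).

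Of 21 tested enzymes of lactate and pyruvate, 3 rose and 1 fell under D-ala and 17 did not pass, with a median of 0.09. Pck1, which starts glucose production from oxaloacetate, rose from 2437 ± 749 to 4136 ± 554 FPKM (0.82, SE 0.18, adjusted p = 0.00989). Gpt, the alanine aminotransferase that yields pyruvate, rose from 20.2 ± 1.59 to 29.9 ± 5.41 FPKM (0.53, SE 0.13, adjusted p = 0.0134). Pklr, the liver and red cell pyruvate kinase, rose from 14.4 ± 1.87 to 19.6 ± 3.35 FPKM (0.41, SE 0.11, adjusted p = 0.019), but not without vehicle replicate 4 or D-ala replicate 1 (highest adjusted p = 0.0587). Pdp1, a phosphatase that activates pyruvate dehydrogenase, was low and fell by 0.34 (adjusted p = 0.0387), a call lost in 10 of 22 alternatives, among them without vehicle 2, 3, 4 or 5 or D-ala 1, 2 or 5 (highest adjusted p = 0.0995). These 4 belong to glucose production, alanine transfer, glycolysis and pyruvate oxidation, and none is lactate dehydrogenase.

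Under L-ala the members of this list that rose were both main subunits of lactate dehydrogenase and malic enzyme, and 18 of 21 did not pass (median 0.07). Ldha went from 452 ± 17.3 to 527 ± 26.5 FPKM (0.22, SE 0.05, adjusted p = 0.0213) and Ldhb from 916 ± 46.1 to 1104 ± 82.2 FPKM (0.27, SE 0.06, adjusted p = 0.0128). Me1, cytosolic malic enzyme, rose from 128 ± 6.14 to 163 ± 8.74 FPKM (0.34, SE 0.05, adjusted p = 0.00298). All 3 had no overlap between L-ala and vehicle libraries, and Ldha and Ldhb had none between D-ala and vehicle either, at ratios of means of 1.09 each. After quantile normalization none passed, at 0.02 for Ldha, 0.05 for Ldhb and 0.17 for Me1 (adjusted p = 0.892, 0.532 and 0.0582). With the length trend removed Ldha was at 0.14 and Ldhb at 0.15, and the Ldha call was also lost without vehicle replicate 4 or L-ala replicate 4. Like Bsg, which was also high and highest under L-ala, all 3 kept their L-ala calls after median-of-ratios scaling but not after quantile normalization.

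Under D-ala Ldha was at 0.13 (adjusted p = 0.129) and Ldhb at 0.13 (adjusted p = 0.162), and neither passed between the isomers (-0.09, adjusted p = 0.267, and -0.14, adjusted p = 0.112). Ldhd, the D-lactate dehydrogenase, stood at 527 ± 51.5 FPKM under vehicle, 508 ± 107 under L-ala and 492 ± 65.4 under D-ala, with -0.11 for D-ala against vehicle (adjusted p = 0.663). Between the isomers, Pdp2 (0.43, adjusted p = 0.0365) and Pklr (0.37, adjusted p = 0.0331) were higher under D-ala and Me1 was lower (-0.23, adjusted p = 0.0145), and 18 of 21 did not pass. Me1 was at -0.12 after quantile normalization (adjusted p = 0.133), its one loss. The call of Pdp2 was lost in 10 of 23 alternatives, without L-ala 1, 2, 3 or 4 or D-ala 3, 4 or 5 among them, and that of Pklr in 7, without L-ala 2 or 4 or D-ala 1, 2 or 3 among them (highest adjusted p = 0.091 and 0.0904).

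**Figure D5:**
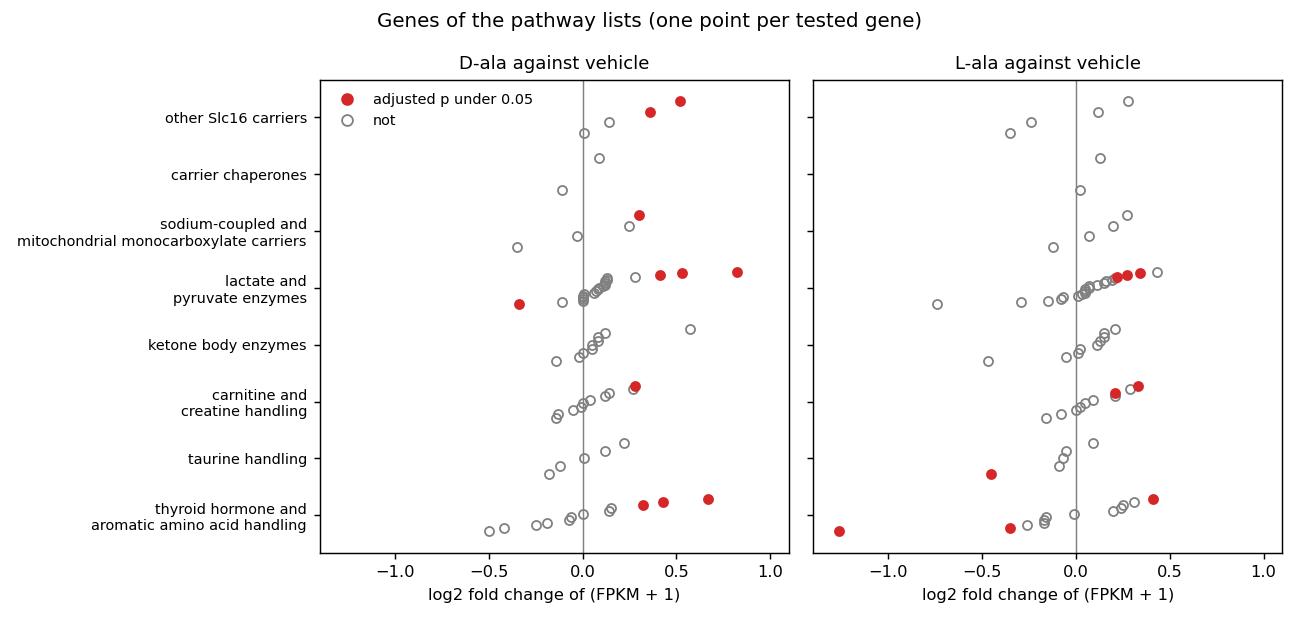
Log2 fold change of (FPKM + 1) for every tested gene of the 8 lists (1 band per list on the y axis, genes ordered by value within it) for D-ala and L-ala, each against vehicle (panels); filled points passed at an adjusted p under 0.05, open points did not. In most lists the points cluster near 0, with Pck1 the highest called point under D-ala at 0.82.

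Of 9 ketone body enzymes, 0 changed between vehicle and either isomer by limma (1 under D-ala and 2 under L-ala at an unadjusted p under 0.05, medians 0.05 and 0.11). Oxct1, which readies acetoacetate for oxidation, was lower under D-ala (523 ± 33.4 FPKM) than under L-ala (631 ± 38.6 FPKM), by -0.27 (SE 0.06, adjusted p = 0.0116), and did not pass after quantile normalization (-0.10, adjusted p = 0.465). Of 5 taurine genes, 0 changed under D-ala by limma (2 at an unadjusted p under 0.05). The taurine carrier gene Slc6a6 fell under L-ala (-0.45, SE 0.14, adjusted p = 0.0496), a call lost in 20 of 23 alternatives, including every one that left out a single library other than L-ala replicate 5 (highest adjusted p = 0.13). Both lists of substrates linked to Slc16a6 thus held 0 called genes between D-ala and vehicle, though after quantile normalization the taurine list held 1.

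Of 10 tested carnitine and creatine genes, the substrates linked to Slc16a9 and Slc16a12, 1 rose under D-ala and 2 under L-ala, and 1 was lower under D-ala than L-ala. Slc22a4, a carnitine and ergothioneine carrier, was 27.1 ± 1.296 FPKM under vehicle and 33.4 ± 4.92 under D-ala (0.28, adjusted p = 0.0487), but passed in only 6 of 23 alternatives, and without 1 library only when that was L-ala 1 or 5 or D-ala replicate 2. Gamt, the last enzyme of creatine synthesis, rose under L-ala from 28.1 ± 3.005 to 35.8 ± 4.99 FPKM (0.33, SE 0.10, adjusted p = 0.0376) and was lower under D-ala than L-ala (-0.33, adjusted p = 0.0319). Ckmt1, mitochondrial creatine kinase, rose under L-ala from 49.1 ± 2.54 to 57.0 ± 3.40 FPKM (0.21, SE 0.06, adjusted p = 0.0311). Gamt and Ckmt1 thus had their highest means under L-ala, the group in which Slc16a12 was highest.

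These L-ala calls depended on single libraries and on length. Gamt was at 0.17 and Ckmt1 at 0.13 with the length trend removed, and Ckmt1 at 0.11 after quantile normalization. For L-ala against vehicle the Gamt call was lost without vehicle 1, 2, 3 or 4 or L-ala 1, 3 or 4 (highest adjusted p = 0.187) and the Ckmt1 call without vehicle 2 or 4 or L-ala 1, 2 or 4 (highest 0.296). For D-ala against L-ala Gamt was at -0.18 with the length trend removed and was lost without L-ala 1, 3 or 4 or D-ala 2, 3 or 4.

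Of 12 tested genes of thyroid hormone and aromatic amino acid handling, which bear on the substrates of Slc16a10, 3 rose and 0 fell under D-ala, 1 rose and 2 fell under L-ala, and 0 differed between the isomers by limma (4 at an unadjusted p under 0.05). Slc3a2, the heavy chain of amino acid exchangers, rose under D-ala from 102 ± 22.6 to 161 ± 20.6 FPKM (0.67, SE 0.12, adjusted p = 0.00244). Slc7a8, a light chain that carries neutral and aromatic amino acids, rose with both isomers, from 34.1 ± 6.05 to 45.8 ± 4.56 FPKM under D-ala (0.43, SE 0.10, adjusted p = 0.00976) and to 45.04 ± 1.17 under L-ala (0.41, SE 0.10, adjusted p = 0.0195). Its L-ala call was lost without vehicle replicate 4 and after quantile normalization (highest adjusted p = 0.0603). Slc7a8 therefore had higher means under both isomers than under vehicle, as Slc16a10 did. The overlap of its D-ala and vehicle libraries came down to vehicle libraries that reached 41.01 FPKM, beside a lowest D-ala library of 40.6.

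Ddc, which decarboxylates aromatic amino acids, rose under D-ala (0.32, adjusted p = 0.0379), though not without vehicle 4 or 5 or D-ala 1, 2 or 4 (highest adjusted p over all alternatives 0.106). Under L-ala Thra, a thyroid hormone receptor, fell by 0.35 (adjusted p = 0.0311), and Slco4c1, an organic anion carrier that takes thyroid hormone, fell by 1.26 (adjusted p = 0.0197). Slco4c1 was low, at 3.64 ± 1.48 FPKM under vehicle and 1.07 ± 1.14 under L-ala, and fell by 2.07 with a pseudocount of 0.1. The Thra call was lost without vehicle 1, 2 or 4 or L-ala 3 or 4 (highest adjusted p = 0.0896) and the Slco4c1 call without vehicle replicate 4 or L-ala replicate 4 (highest 0.0557).

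Of the 8 genes other than members whose levels most resembled that of Slc16a6 over the 15 libraries, by Pearson r of log2(FPKM + 1), 7 are named here: Wsb1 (0.976), Topors (0.966), Efna1 (0.944), Zfp612 (0.944), Adm2 (0.943), Dgat2 (0.942) and Slc20a1 (0.938). Wsb1 codes for a substrate receptor of a ubiquitin ligase, Topors for a ubiquitin and SUMO ligase, Efna1 for an ephrin, Adm2 for a peptide hormone, Dgat2 for an enzyme of triglyceride synthesis and Slc20a1 for a phosphate carrier. All 7 had their highest mean under D-ala, as Slc16a6 did, which their choice by likeness to Slc16a6 brings with it. Wsb1 stood at 26.2 FPKM under vehicle, 33.9 under L-ala and 99.6 under D-ala, and Slc20a1 at 14.3, 22.7 and 69.4. Dgat2 had a smaller step, from 116 FPKM under vehicle and 114 under L-ala to 157 under D-ala.

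This likeness followed the difference between groups. With group means removed these 7 had r from -0.114 (Efna1) to 0.436 (Dgat2). Ranking all tested genes by Spearman rho, or by r with group means removed, gave lists of 8 that shared 0 genes with this one. Of the members, Slc16a1 had the highest r with Slc16a6 over the 15 libraries, 0.766, which was 0.139 with group means removed.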

How the data were processed

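Kidney RNA from 15 wild-type mouse samples, 5 each of vehicle, L-ala and D-ala at 2 h, was sequenced. TRIzol extraction and a TruSeq stranded mRNA kit are stated per the labels' protocols. The tools named per the submitters' processing notes are SAMtools 0.1.19, Bowtie2 2.2.3 and TopHat2 2.0.13, with build mm10; for their roles, the counting program, its annotation and its use of strand the entry is: not given in the sources used here. The deposited FPKM values, so named per the file headers, were tested. The deposited log2 column (processed signal, per the file headers) was not used. The deposited column headed count holds whole counts that were rescaled library by library and rounded, so it was taken as a score. It served to recover depth and to compare pairs of libraries. Divided by FPKM, it also gave the gene length used for the length trend. No count model was fitted, and FPKM carry no counting interval.

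Genes reaching 1 FPKM in 5 libraries, 11781 of them, were fitted as log2(FPKM + 1) with limma 3.58.1 in R 4.3.3, with 1 mean per group over all 15 libraries and trended, robust moderation. Adjusted p-values are Benjamini-Hochberg within each of 3 comparisons. Genes were placed on GENCODE M21 (GRCm38), and older symbols of the table were matched through RefSeq synonyms; Hbb-bt and Ahsp were not matched. Alternatives were scaling by median of ratios or quantiles, a pseudocount of 0.1, other filters, plain moderation, fits of 2 groups, each library left out and, chosen after seeing the data, removal of each library's trend with gene length. The 9 genes and all lists were chosen with earlier results of these data known. Named genes were the members, a fixed set of 12 related genes, up to 4 called genes of each list per comparison by smallest p, and the 8 tested genes most like Slc16a6, Gm and Rik gene models left out. Some genes that this rule names are not reported here.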

Additional observations from a re-analysis of the deposited data

Results flagged for a closer look

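In 6 groups of 5 libraries, out of 114 tested for the named genes, 1 library lay far from the other 4; chance flags about 1 in 20 groups. Slc16a1 stood at 12.9 FPKM in D-ala replicate 2, where the other D-ala libraries were between 8.54 and 9.55. Slc16a5 was at 10.4 FPKM in D-ala replicate 4, with the others at 6.87 to 7.64. Slc5a12 reached 100.4 FPKM in D-ala replicate 5, with the others at 75.9 to 80.6. Slc6a6 reached 95.7 FPKM in vehicle replicate 2, with the others at 64.0 to 70.1. In L-ala replicate 5, Slc5a8 was at 58.9 FPKM, with the others at 39.04 to 43.7, and Slco4c1 was at 3.04 FPKM, with the others at 0.217 to 0.928. The 6 flags are about as many as chance gives at that rate. Whether anything else set these libraries apart was not tested.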

How the results depend on the processing

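No result changed sign past its threshold under any alternative run, and the calls of Slc16a6 (D-ala against vehicle and against L-ala) and of Slc16a1 (D-ala against vehicle) were made in all 23. The number of members called for L-ala against vehicle, 2, was 0 after quantile normalization, 0 with only the 2 groups compared, 1 with no filter on low values and 1 with plain moderation. For D-ala against L-ala, 3 members became 1 after quantile normalization and 1 with 2 groups. List genes called for D-ala against vehicle, 11, were 7 with no filter. For L-ala against vehicle, 9 became 2 after quantile normalization and 4 with 2 groups. For D-ala against L-ala, 9 became 5, 5 and 4 after quantile normalization, with 2 groups and with no filter. Over all genes, 1297 calls for L-ala against vehicle became 575 after quantile normalization, 603 with 2 groups and 746 with the trend with gene length removed, and 1611 for D-ala against L-ala became 975 with 2 groups. Leaving out 1 library gave 2 to 4 members, 5 to 13 list genes and 814 to 1591 genes in all called for D-ala against vehicle. It gave 0 to 3, 2 to 17 and 321 to 2577 for L-ala against vehicle, and 1 to 3, 4 to 20 and 770 to 2763 between the isomers. The libraries that moved the count over all genes by over 1.5 times were vehicle 4 for D-ala against vehicle (814), vehicle 1 (805), 2 (759) and 4 (321) and L-ala 1 (627), 3 (802), 4 (391) and 5 (2577) for L-ala against vehicle, and L-ala 1 (1025), 4 (770) and 5 (2763) and D-ala 1 (1015), 3 (963) and 4 (1057) between the isomers. Of genes called, the higher ones were 57.0% for D-ala against vehicle (47% after quantile normalization) and 58.8% for L-ala against vehicle (40.7%, or 72.0% with a filter of 5 FPKM). Lists with 0 calls gained some without L-ala replicate 5: for L-ala against vehicle 2 of the other Slc16 carriers, 1 sodium-coupled or mitochondrial carrier and 1 ketone body enzyme, and between the isomers 2 taurine genes and 4 of thyroid hormone and aromatic amino acids. The 8 genes most like Slc16a6 shared 0 with the lists by Spearman rho and 0 with group means removed. The causes of these shifts were not tested. No paired analysis was possible because the labels carry no replicate numbers. Slc16a3 and Slc16a8 stayed under the filter of 1 FPKM; what depth of 7.57 to 10.94 M reads limits was not tested.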
